A study of Mus musculus with 2 samples.

Results

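Mir28a, Mir151 and Mir708 are 3 of the 2202 microRNA genes counted, chosen by name as a family that derives from LINE-2 repeats and lies in introns of Lpp, Ptk2 and Tenm4. All 3 names matched a gene of GENCODE M21, the annotation used for the counts, and all 3 had reads in both libraries. MicroRNAs of under 30 bases were sequenced from the heart of female B6CASTF1/J mice, an F1 hybrid cross, at an age of 14 days. The 2 libraries are biological replicates of 1 group, the labels name no treatment, and no conditions stand against each other. The labels speak of 3 females for replicate 1 and of a single one for replicate 2, without saying whether hearts were pooled.

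A microRNA gene is transcribed as a hairpin that is cut into a short duplex, and either arm of the hairpin, the 5p or the 3p arm, can be loaded into an Argonaute protein. The loaded strand pairs with messenger RNAs, mainly through its seed (bases 2 to 8), and represses them. LINE-2 elements are ancient, inactive retrotransposons, and hairpins can arise where copies or parts of them face each other in a transcript. Intronic microRNAs on the strand of their host gene are usually cut from the host's primary transcript. Lpp encodes a LIM domain protein of focal adhesions that is prominent in smooth muscle, Ptk2 encodes focal adhesion kinase, and Tenm4 encodes a teneurin, a transmembrane protein best known from neural connectivity. In mice, miR-708 is known to be induced through the endoplasmic reticulum stress factor CHOP.

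Mature sequences of 2 of the 3 genes, Mir28a and Mir708, matched in RefSeq (GRCm38.p6), and a mature sequence of the related gene Mir28b matched as well. They are shown because the seed decides which messenger RNAs are paired, and because the likeness of these arms bears on which reads can be counted. Each is written 5′ to 3′ with its seed in capitals.
miR-28a-5p: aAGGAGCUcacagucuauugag
miR-708-5p: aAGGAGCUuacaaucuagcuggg
miR-28b: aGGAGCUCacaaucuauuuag
miR-28a-3p: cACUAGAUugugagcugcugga
miR-708-3p: cAACUAGAcugugagcuucuag

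miR-28a-5p and miR-708-5p had the same seed, and no other of the 1738 mature sequences in the RefSeq table had it. The 2 arms were identical at 16 of 22 positions (72.7%). Counted from the 5′ end of miR-28a-5p, with its base first and that of miR-708-5p last, the differences were C9U, G13A, U18G, U19C, G20U and A21G. The annotated miR-28b starts 1 base further in, so its seed was a different one, although 19 of its 21 bases (90.5%) equalled those of miR-28a-5p, with the differences G13A and G20U. On the 3p side the cut was offset by 1 base as well. miR-28a-3p and miR-708-3p agreed at 17 of 21 positions (81.0%) when so aligned, and their seeds differed.

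The 5p arms of the family can be set against the 3p arms of either gene. miR-28a-5p and miR-708-3p held a run of 13 bases that pair as Watson-Crick complements without a gap, at positions 5 to 17 of miR-28a-5p, shown here in capitals.
miR-28a-5p: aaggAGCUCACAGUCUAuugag
Against its own 3p arm the longest such run of miR-28a-5p was 8 bases, at positions 5 to 12, and that of miR-708-5p against miR-708-3p was 5 bases. With G:U pairs counted as well, the run of miR-28a-5p was 16 bases against miR-708-3p and 13 against its own 3p arm, again at positions 5 to 17. That of miR-708-5p was then 14 bases against miR-28a-3p and 11 against its own 3p arm, so the gap between partners is smaller on this count. Whole hairpins, taken from the GENCODE M21 transcripts, were first compared in the same direction. Mir151 and Mir28a shared a run of 16 bases, Mir28a and Mir708 one of 10, and Mir151 and Mir708 one of 9. In reverse complement, Mir151 and Mir708 shared a run of 15 bases, the longest of either with another hairpin. For Mir28a the longest run in reverse complement was 13 bases, with Mir28b. The files carry no repeat annotation, so the LINE-2 origin itself was not checked.

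The 3 genes lie on separate chromosomes of mm10, each on the strand of its host and with no exon of the host over it. Mir28a (chromosome 16, 24827855 to 24827940, plus strand, 86 bases) lies in intron 8 of the 13-exon transcript Lpp-201. That intron spans 82814 bases, and the hairpin starts 65578 bases after the upstream exon. Mir708 (chromosome 7, 96249424 to 96249532, plus strand, 109 bases) lies in intron 1 of the 33-exon transcript Tenm4-202, an intron of 143365 bases, 37753 bases from the transcript's start. Mir151 (chromosome 15, 73254815 to 73254882, minus strand, 68 bases) lies in intron 22 of the 32-exon transcript Ptk2-201, an intron of 14556 bases, 2151 bases after the upstream exon. An intron of the antisense gene 1700085D07Rik also covers Mir151 on the other strand.

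**Figure D1:**
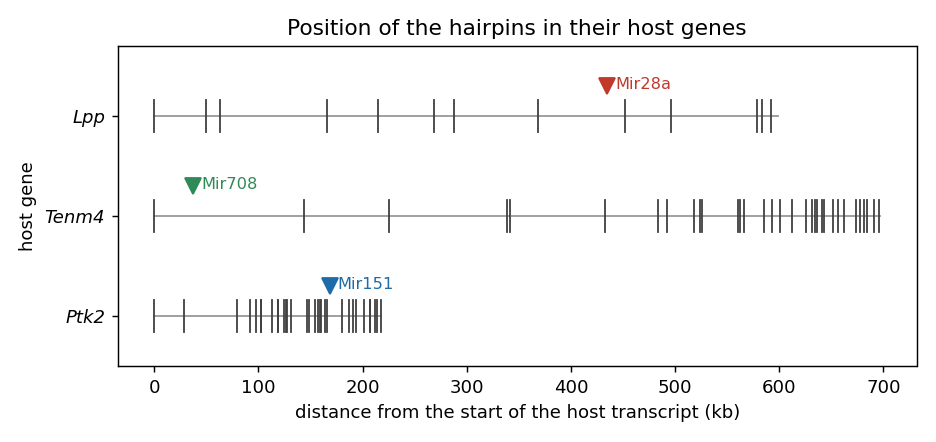
Position of the 3 hairpins (triangles) along 1 transcript of each host gene, Lpp-201, Tenm4-202 and Ptk2-201; the horizontal axis is the distance from the transcript's start in kb and each vertical bar is an exon. Mir708 lies in the first intron of Tenm4, whereas Mir28a and Mir151 lie far into Lpp and Ptk2.

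Reads that map to several places were counted for no gene in the deposited tables, so stretches shared with other loci bear on the levels of the family. Mir28a and the gene Mir28c (chromosome 15, 53614205 to 53614279, minus strand, in an intron of Samd12) shared 20 bases, which cover positions 2 to 21 of the 22 bases of miR-28a-5p. Mir708 and the annotated microRNA gene Gm23134 (chromosome 2, 157562361 to 157562447, minus strand, in an intron of Blcap) shared 23 bases, which cover positions 2 to 23 of miR-708-5p, that is 22 of its 23 bases. Both Mir28c and Gm23134 had 0 counted reads in both libraries. Levels are given as CPM, counts scaled to 1000000 reads on the own strand of microRNA genes. The limit set for a count of 0 was 0.573 CPM for replicate 1 and 0.991 for replicate 2, and it covers uniquely mapping reads only. Reads within the shared stretches map to 2 places and were counted for no gene, so these zeros do not bound the expression of either locus. A read of either 5p arm that lacks its end bases, or that is aligned with a mismatch, can therefore map to 2 places, and the levels of Mir28a and Mir708 are uncertain on the low side by an amount these counts do not show. For Mir151 the longest run shared with another hairpin was 17 bases, with Mir28c. Sequence outside annotated transcripts was not searched.

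The locus of Gm23134 lies across the 3′ UTR of Nnat, which encodes the small endoplasmic reticulum membrane protein neuronatin, and runs against it. The Nnat messenger RNA therefore carries a run of 23 bases (chromosome 2, 157562404 to 157562426, plus strand) that is fully complementary to positions 2 to 23 of miR-708-5p and 1 base beyond it. The 3′ UTR of St6galnac5, a sialyltransferase gene, holds 26 bases complementary to the Mir708 hairpin (chromosome 3, 152817172 to 152817197, minus strand), and these cover positions 1 to 18 of miR-708-5p. The 3′ UTR of Zkscan8, a zinc finger gene, holds 20 such bases, which cover positions 1 to 12. The 2 longer runs are written as DNA, 5′ to 3′ on the messenger strand, with the complement of the seed in capitals.
Nnat: ccccagctagattgtaAGCTCCT
St6galnac5: ctagattgtaAGCTCCTtgagggcag
A search of 141767 transcripts for any 20 bases complementary to a hairpin found 4 genes for Mir708, the lincRNA gene Gm36380 besides these 3, 1 for Mir151 (Klf3) and 0 for Mir28a. Messenger RNA was not measured here, so these matches describe sequence alone.

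**Figure D2:**
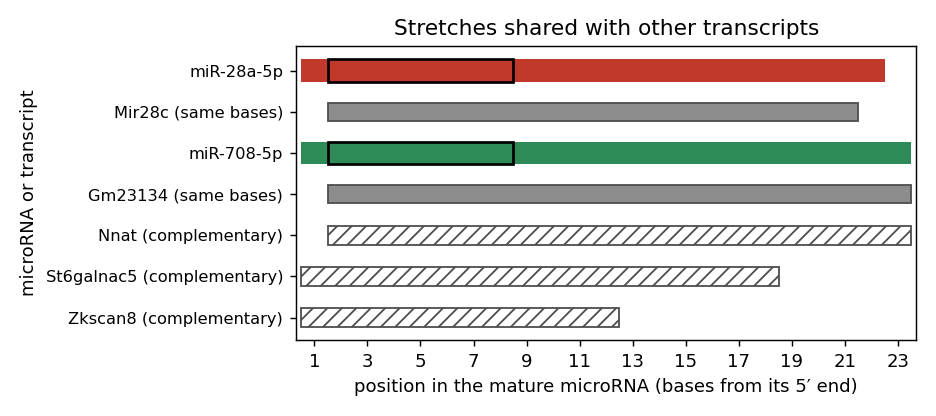
Stretches of miR-28a-5p and miR-708-5p (coloured bars, seed boxed) that are the same in another microRNA gene (grey) or complementary to a messenger RNA's 3′ UTR (hatched); the horizontal axis is the position in bases from the 5′ end of the mature microRNA. Gm23134 and Nnat both cover positions 2 to 23 of miR-708-5p.

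The libraries held 12701590 reads in replicate 1 and 7126319 in replicate 2, of which 41.2% and 42.5% fell on microRNA genes in the sense direction. The heart microRNAs Mir208a, Mir208b and Mir499, each in an intron of a myosin heavy chain gene, were all detected. The liver microRNA Mir122 (55.9 and 70.4 CPM) and the skeletal muscle microRNA Mir206 (7.83 and 20.5 CPM) were detected too, Mir122 close to the detected genes' median and Mir206 below it. Detection required 10 or more reads in each library, and 335 genes met it. All intervals are exact (95%, Clopper-Pearson). The limit for a count of 0 was instead set at 3 reads, which is below the upper end of the exact interval. The reads carry no molecular identifiers, so intervals and the limits for a count of 0 cover counting error only. The tables count whole hairpins, so the arms of a hairpin cannot be told apart, and in heart tissue fewer cells of a type and less RNA per cell cannot be told apart either.

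Mir151 was the most abundant of the family, and Mir28a came next. Mir151 had 33176 reads in replicate 1 and 21075 in replicate 2. This came to 6335 CPM (interval 6267 to 6403) in replicate 1 and 6963 CPM (6870 to 7058) in replicate 2, a mean of 6649 ± 445 CPM (SD, n = 2). It ranked 21st of the 2202 genes by mean CPM and lay above 93.7% of the detected ones. Mir28a had 13633 reads in replicate 1 and 9687 in replicate 2. This came to 2603 CPM (2560 to 2647) in replicate 1 and 3201 CPM (3137 to 3265) in replicate 2, a mean of 2902 ± 423 CPM. It ranked 43rd and lay above 87.2% of the detected genes. The 2 libraries of Mir28a both lay below both libraries of Mir151.

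By counted reads Mir708, which shares its seed with Mir28a, was far less abundant than either. It had 508 reads in replicate 1 and 328 in replicate 2. This came to 97.0 CPM (88.7 to 106) in replicate 1 and 108 CPM (97.0 to 121) in replicate 2, a mean of 103 ± 8.04 CPM, rank 156. Its level lay above 53.4% of the detected genes, close to their median of 73.3 CPM. For none of the 3 did the SD between libraries come near the distance to the next member, so the order Mir151, Mir28a, Mir708 was the same in each library. With 2 libraries each SD rests on a single difference. Reads that also match Gm23134 or Mir28c were counted for no gene. The distances of Mir708 and Mir28a to the other members therefore hold for uniquely mapping reads only.

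**Figure D3:**
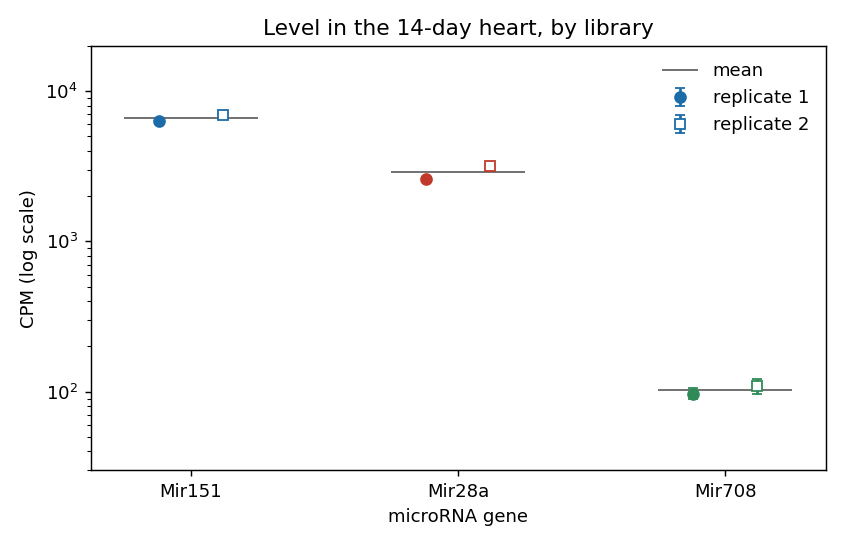
CPM on a log scale for each gene in replicate 1 (filled circles) and replicate 2 (open squares), with exact 95% intervals that are mostly smaller than the symbols and the mean as a line. Mir151 lies above Mir28a and Mir28a above Mir708 in both libraries.

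The 3 genes together took 0.904% (0.895 to 0.912) of the counted reads of replicate 1 and 1.03% (1.02 to 1.04) of those of replicate 2. Of these reads, Mir151 supplied 69.0% ± 1.65, Mir28a 30.0% ± 1.66 and Mir708 1.06% ± 0.0132 (SD, n = 2). The related genes added almost nothing to the counted reads. Mir28b (chromosome 8, 73016512 to 73016591, outside any protein-coding host on its strand) had 0 reads in replicate 1 and 3 in replicate 2, and Mir28c had none. Reads of the stretch that Mir28c shares with Mir28a can be counted for no gene, so what Mir28c adds is not known. Of the reads counted for the genes with the seed shared by miR-28a-5p and miR-708-5p, nearly all came from the Lpp intron, with the arm behind them unknown.

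Ratios within a library do not depend on its depth. They compare uniquely mapping reads, so reads lost to loci alike in sequence could change them by an amount not known here. Mir151 was 2.43 times as abundant as Mir28a in replicate 1 and 2.18 times in replicate 2, log2 ratios of 1.28 (1.25 to 1.31) and 1.12 (1.09 to 1.16). The intervals do not overlap, and the 2 log2 ratios differed by 0.16, with a counting standard error of 0.016. Mir28a was 26.8 times as abundant as Mir708 in replicate 1 and 29.5 times in replicate 2, log2 ratios of 4.75 (4.62 to 4.88) and 4.88 (4.73 to 5.05), whose intervals overlap. Mir151 was 65.3 times as abundant as Mir708 in replicate 1 and 64.3 times in replicate 2, and these log2 ratios differed by 0.023 with a counting standard error of 0.071. Levels from uniquely mapping reads spanned a wide range within the family, and this range was similar in both libraries.

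Set beside other microRNAs in introns of a protein-coding gene on its strand, Mir151 and Mir28a stood high and Mir708 in the middle. Of 733 such genes 114 were detected, with a median of 111 CPM, and Mir151 ranked 9th, Mir28a 18th and Mir708 59th among them. By distance in log2(CPM + 1) over the 2 libraries, the genes closest to Mir151 were Mir93 (5933 and 6613 CPM) and Mir30a (7333 and 7349 CPM). Those closest to Mir28a were Mir17 (2288 and 3294 CPM) and Mir320 (2765 and 3858 CPM). Those closest to Mir708 were Mir16-2 (95.1 and 116 CPM) and Mir669o (117 and 116 CPM). With 2 libraries this likeness is one of level and of a single difference.

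A list of 7 other microRNAs, drawn up from general knowledge as derived from ancient L2 or MIR repeats, lay well below Mir151 and Mir28a. The repeat origin of these genes was not checked either. Of the 7 genes 5 were detected. Mir330, which overlaps an exon of Eml2, led with 383 CPM in replicate 1 and 313 CPM in replicate 2. Mir421 stood at 104 and 82.6 CPM, close to Mir708, and Mir345, which overlaps an exon of Slc25a47, at 66.8 and 39.3 CPM. Mir374b stood at 40.5 and 35.0 CPM and Mir493, of the imprinted Dlk1-Dio3 cluster, at 30.7 and 34.4 CPM. Mir325 had 14 and 8 reads. Mir374c, on the opposite strand of Mir374b, had 0 reads, and the 212 and 106 reads on its opposite strand equalled the own-strand count of Mir374b.

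**Figure D4:**
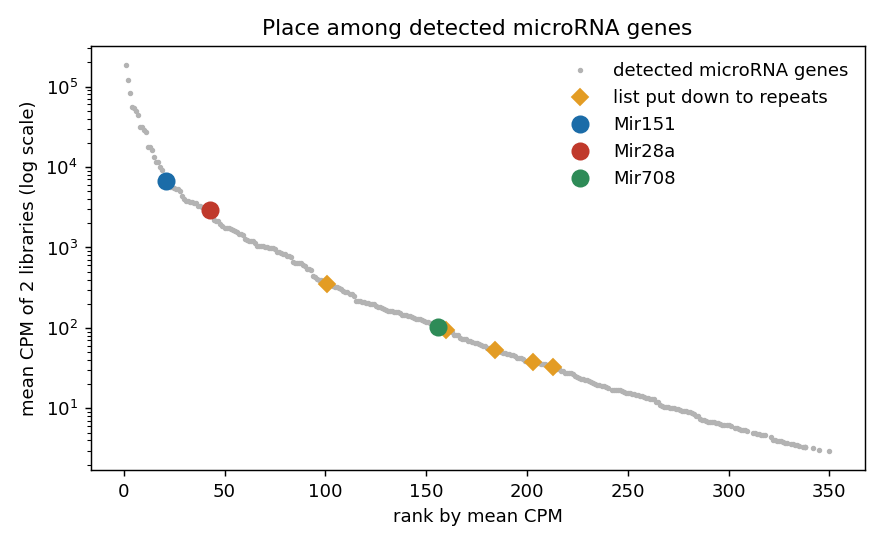
Mean CPM of 2 libraries on a log scale against rank for the 335 detected microRNA genes (grey), with the 3 genes of the family and the 5 detected genes of the list of other microRNAs put down to repeats marked. Mir151 and Mir28a sit on the steep early part of the curve, and Mir708 lies among the genes of that list.

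All 3 genes had lower values in replicate 1 than in replicate 2, by 1.21-fold to 1.35-fold after TMM scaling. For Mir28a the log2 difference, replicate 1 minus replicate 2, was -0.43 (counting interval -0.47 to -0.39). An exact two-sided binomial test with Benjamini-Hochberg adjustment over the 430 genes with at least 10 reads in sum gave an adjusted p of 2.26e-109. For Mir151 the log2 difference was -0.27 (-0.30 to -0.25), with an adjusted p of 2.94e-98 by the same test. For Mir708 it was -0.30 (-0.50 to -0.09), with an adjusted p of 0.010. All 3 passed the threshold of 0.05, but so did 55.3% of all genes tested, where the 27.4% called lower in replicate 1 stood against 27.9% called higher. The test compares these 2 libraries and allows for counting error alone.

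Against the spread between libraries the differences of the family were ordinary. Over 226 genes averaging 100 or more reads, the median absolute log2 difference was 0.40, a fold of 1.32. Of these genes, 47.8% differed by more than Mir28a, 63.7% by more than Mir708 and 67.3% by more than Mir151. A run of edgeR's exact test took a biological coefficient of variation fixed at 0.1, a value assumed and not estimated from these libraries. This exact test called 0 of the 3 genes, and 1, Mir28a, had an unadjusted p under 0.05 (0.035). Their adjusted p-values were then 0.098 for Mir28a, 0.36 for Mir708 and 0.34 for Mir151, while 28.6% of all genes tested were called. The call of Mir708 was also lost with total counts (log2 -0.16, adjusted p = 0.20) and with DESeq2 size factors (log2 -0.21, adjusted p = 0.079), so for this gene it rested on the scaling. With total counts the log2 difference was -0.30 for Mir28a and -0.14 for Mir151, both still called by the binomial test. That setting called 240 of the 430 genes tested, 144 of them higher in replicate 1 and 96 lower.

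**Figure D5:**
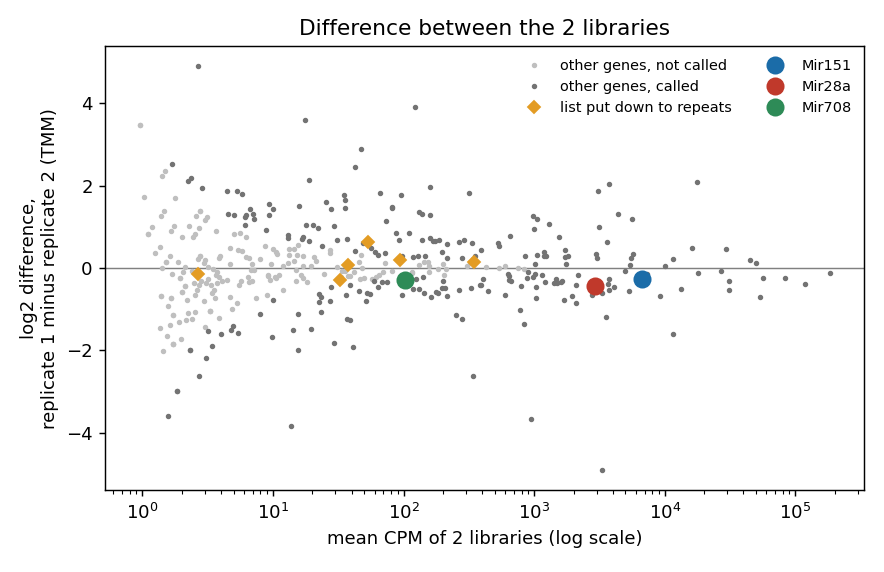
Log2 difference between the libraries, replicate 1 minus replicate 2 after TMM scaling, against mean CPM on a log scale, for the 430 genes tested; dark grey points were called by the binomial test. Mir28a, Mir151 and Mir708 lie between -0.43 and -0.27, within the cloud of other genes.

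Genes of the list of other microRNAs put down to repeats were tested in the same way. Of 6 tested, Mir345 (log2 0.63, adjusted p = 7.23e-05 by the binomial test) and Mir330 (log2 0.16, adjusted p = 0.013) were higher in replicate 1, 0 were called lower and 4 were not called, where 27.9% of all genes tested were called higher and 27.4% lower. With total counts 3 were higher, as Mir421 gained a call, where 144 of all 430 genes tested were called higher and 96 lower. The exact test of edgeR called 0 of the 6, against 28.6% of all genes. Their median log2 difference was 0.11, against -0.05 over all genes tested.

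Markers of several cell types also differed between the libraries. The erythroid Mir451a (234 and 6393 CPM) and Mir144 (103 and 579 CPM) were far lower in replicate 1. The endothelial Mir126a (42911 and 63991 CPM) and the smooth muscle Mir143 (29124 and 33002 CPM) were lower in replicate 1 as well, although Mir145a of the smooth muscle pair was higher (1209 and 877 CPM). Of the cardiomyocyte genes, Mir208a (1356 and 641 CPM) and Mir499 (3482 and 2486 CPM) were higher in replicate 1, and Mir208b stood at 329 and 288 CPM. Of the leukocyte genes, Mir223 (106 and 27.1 CPM) and Mir142 (133 and 101 CPM) were higher and Mir155 (1591 and 2619 CPM) was lower. Each of these differences except that of Mir208b passed the binomial test, as did 55.3% of all 430 genes tested. The neuronal genes (Mir9-1, Mir9-2 and the 3 Mir124a copies) had 0 reads, but they are copies with shared mature sequences, whose reads map to several places and were counted for no gene, so these zeros say nothing of neuronal RNA. The part of these cell types in the differences of the family was not tested.

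Reads of the family lay almost wholly on the strand of the genes. Mir28a and Mir151 had 0 reads on the opposite strand in both libraries. For Mir151 this allows a share of up to 0.00904% of its reads in replicate 1 and 0.0142% in replicate 2, and for Mir28a of up to 0.0220% and 0.0310%. Mir708 had 5 opposite-strand reads in replicate 1 and 1 in replicate 2.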

How the data were processed

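The authors deposited 1 table of raw read counts per library, made on mm10 with GENCODE M21 microRNA genes, per the deposited readme. How reads were trimmed, aligned and counted is not given in the sources. Each table has 3 unlabelled columns of counts; their totals and ambiguous reads show them to be unstranded, own strand and opposite strand, and the own strand was used. The 4 summary lines stayed out. They held the unmapped reads (13.4% of replicate 1, 13.3% of replicate 2), those with several map positions (41.1% and 39.9%) and those outside microRNA genes (4.33% and 4.30%).

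Levels are CPM over all gene rows. Differences between libraries, with 0.5 reads added, used library sizes scaled by TMM over genes with 10 or more reads in total (edgeR 4.0.16, R 4.3.3). The binomial test doubled the smaller tail and was tested on simulated data. With 1 library a side, a quasi-likelihood test has no residual degrees of freedom. Alternatives were total counts, totals without the most abundant gene, DESeq2 1.42.0 size factors, unstranded counts, a pseudocount of 10, no filter, other denominators, each library alone and edgeR's exact test. TMM over all gene rows was added after seeing the data. Named were the 3 genes, the 2 genes nearest to each in level, the detected genes of the list of other microRNAs put down to repeats, Mir28b and Mir28c, and cell type markers; Mir325, Mir374c, Gm23134 and the genes with complementary stretches were named after their values or sequences were seen. Members and lists were chosen with earlier results of these data known. The labels call the libraries biological replicates. The age follows the age field, since another label names months. Other work used Python 3.11.15 with scipy 1.17.1, numpy 2.4.6, matplotlib 3.10.9 and pandas 2.3.3.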

Additional observations from a re-analysis of the deposited data

Results flagged for a closer look

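Mir708 had 5 reads on its opposite strand in replicate 1, which is 0.975% (exact 95% interval 0.317 to 2.26) of its reads on both strands, against 1 read (0.304%, 0.00770 to 1.68) in replicate 2. The 5 reads lie in a column that the levels do not use, and they exceed the 3 reads set as the limit for a count of 0. Mir28a and Mir151, with 26.8 and 65.3 times as many counted reads in replicate 1, had 0. Of the cell type markers, Mir122 had 39 opposite-strand reads in replicate 1 and 28 in replicate 2, Mir126a had 3 and 0, and the others 0. Opposite-strand reads were thus not particular to Mir708.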

How the results depend on the processing

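The order of the 3 genes and the sign of each log2 difference were the same under each alternative run for them. No paired analysis was possible because there is only 1 group. Levels follow the denominator. With unstranded counts, whose total is smaller because overlapping genes drop out, Mir28a stood at 3976 CPM, Mir708 at 141 and Mir151 at 9103. Without the most abundant gene in the denominator they stood at 3556, 126 and 8149 CPM, and scaled to all reads at 1216, 43.0 and 2785. Unstranded ranks were 37 for Mir28a, 141 for Mir708 and 17 for Mir151. Leaving out either library gave ranks of 36 to 41 for Mir28a, 149 to 165 for Mir708 and 20 to 23 for Mir151, levels of 2603 to 3201, 97.0 to 108 and 6335 to 6963 CPM, and log2 ratios of 1.12 to 1.28 for Mir151 over Mir28a, 4.75 to 4.88 for Mir28a over Mir708 and 6.01 to 6.03 for Mir151 over Mir708. Mir28a (log2 -0.43) and Mir151 (log2 -0.27) lost their calls in 1 of 7 alternatives, edgeR's exact test. Mir708 lost its call there (log2 -0.30), with total counts (-0.16), with DESeq2 size factors (-0.21), without the most abundant gene in the totals (-0.16, adjusted p = 0.21) and with TMM over all gene rows (-0.17, adjusted p = 0.18). Over all genes, the binomial test called 238, 120 of them higher and 118 lower in replicate 1, and edgeR's exact test called 123, 67 higher and 56 lower. Relative to total counts, TMM shifted every log2 difference by -0.13, and the share of called genes that were higher in replicate 1 was 50.4% with TMM and 60.0% with total counts.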
